A study of Mus musculus with 66 samples.

Results

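The 10 genes described here encode glutathione and thioredoxin redox enzymes: Gpx1, Gpx2, Gpx4, Gclc, Gclm, Gss, Gsr, Txnrd1, Nqo1 and Srxn1. They were taken from the RNA table by gene symbol. Each had 1 transcript in the RNA table, so the 10 transcripts stand among 9481 transcripts of 8978 gene symbols, and all 10 passed the filter on low counts. Their RNA, the open chromatin and histone marks around them, and reads of the transcription factor Hnf4g were followed across the 3 cultures of mouse small intestinal organoids. The organoids carry a GFP and diphtheria toxin receptor reporter at 1 Lgr5 allele (Lgr5 GFPDTR/+). ENR medium held EGF at 50 ng/mL, 10% Noggin and 5% R-Spondin-1, and gives cultures with stem cells beside differentiated cells. CV organoids, enriched for stem cells, were grown in ENR medium with 3 µM CHIR99021, an inhibitor of GSK3 that raises Wnt signalling, and 1 mM valproic acid, which among other actions inhibits histone deacetylases. EN organoids, depleted of stem cells, had no R-Spondin-1. All 3 media held 1.25 mM n-acetyl cysteine, a source of cysteine for glutathione, and B27 supplement. The time in culture was not the same for the 3 media. Each culture had 4 libraries for RNA and 4 for open chromatin (ATAC-seq), 3 for each histone mark and 1 for Hnf4g. The labels do not say whether the libraries of a culture come from separate cultures or animals, so p-values measure only the spread between these libraries, which may be technical.

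Glutathione is a tripeptide that cells hold at high concentration as a reducing agent. Glutamate-cysteine ligase, made of the catalytic subunit Gclc and the modifier subunit Gclm, carries out the rate-limiting step of its synthesis, and Gss, glutathione synthetase, the last step. Glutathione peroxidases use glutathione to reduce peroxides, and Gsr, glutathione reductase, returns the oxidised form with NADPH. Gpx1 is a cytosolic peroxidase found in most cells, Gpx2 is the gastrointestinal peroxidase, known from intestinal crypts and as a Wnt and Nrf2 target, and Gpx4 reduces lipid peroxides in membranes and protects from ferroptosis. Txnrd1, the cytosolic thioredoxin reductase, keeps thioredoxin reduced. Srxn1, sulfiredoxin, restores peroxiredoxins that have been overoxidised, and Nqo1 reduces quinones. Gpx1, Gpx2, Gpx4 and Txnrd1 are selenoproteins. Gclc, Gclm, Gsr, Txnrd1, Nqo1 and Srxn1 are textbook targets of Nrf2, a factor that binds antioxidant response elements.

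The promoters of the genes with the clearest values below are printed first, since the chromatin values further on are measured over them. Promoter sequences, 250 bases before to 50 after a start site, came from RefSeq (GRCm38.p6) and matched 8 of the 10 genes with 13 entries. Gclc and Gsr had no entry, and motif matches in their promoter regions are given further below. Each entry was found exactly once in mm9, the build of the chromatin files. In mm9 the Gpx2 promoter lies at chr12:77896492-77896791 on the minus strand. On the plus strand the Gpx4 promoter lies at chr10:79516060-79516359, the Gclm promoter at chr3:121948225-121948524, the Txnrd1 promoter at chr10:82321701-82322000 and the Srxn1 promoter at chr2:151931010-151931309. Each is shown in the direction of transcription, with matches to the searched motifs in capitals.
Gpx2 promoter: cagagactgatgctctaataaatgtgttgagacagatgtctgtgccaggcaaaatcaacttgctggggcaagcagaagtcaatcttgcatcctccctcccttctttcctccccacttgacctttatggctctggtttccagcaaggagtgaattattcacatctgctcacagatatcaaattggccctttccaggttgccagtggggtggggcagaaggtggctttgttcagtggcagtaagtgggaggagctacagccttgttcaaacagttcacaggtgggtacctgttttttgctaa
Gpx4 promoter: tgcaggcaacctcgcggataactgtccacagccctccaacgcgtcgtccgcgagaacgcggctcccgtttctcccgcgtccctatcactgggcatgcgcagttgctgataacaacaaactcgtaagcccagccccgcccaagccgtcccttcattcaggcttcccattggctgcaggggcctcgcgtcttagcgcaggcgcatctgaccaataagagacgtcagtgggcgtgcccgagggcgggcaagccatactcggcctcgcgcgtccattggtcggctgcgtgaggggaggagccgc
Gclm promoter: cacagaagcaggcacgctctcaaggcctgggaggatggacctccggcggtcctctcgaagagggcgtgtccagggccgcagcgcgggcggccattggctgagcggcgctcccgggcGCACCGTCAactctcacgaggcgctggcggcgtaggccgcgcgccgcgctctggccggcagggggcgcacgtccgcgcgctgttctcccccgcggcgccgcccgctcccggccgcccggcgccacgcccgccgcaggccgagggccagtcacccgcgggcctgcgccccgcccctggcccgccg
Txnrd1 promoter: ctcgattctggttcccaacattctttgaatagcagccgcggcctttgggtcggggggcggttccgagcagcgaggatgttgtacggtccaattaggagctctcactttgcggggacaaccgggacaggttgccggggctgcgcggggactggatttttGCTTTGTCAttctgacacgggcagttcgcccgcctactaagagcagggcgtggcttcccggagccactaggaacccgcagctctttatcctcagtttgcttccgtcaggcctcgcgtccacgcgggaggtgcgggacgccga
Srxn1 promoter: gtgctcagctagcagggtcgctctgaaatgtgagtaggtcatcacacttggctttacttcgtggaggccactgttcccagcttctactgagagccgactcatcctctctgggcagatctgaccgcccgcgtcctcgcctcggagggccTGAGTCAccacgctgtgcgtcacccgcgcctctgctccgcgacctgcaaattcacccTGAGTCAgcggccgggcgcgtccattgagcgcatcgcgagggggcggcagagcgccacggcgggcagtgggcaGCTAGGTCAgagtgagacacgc

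The motifs were searched on both strands: the core of the antioxidant response element, TGACNNNGC, which 12.4% of 32851 RefSeq promoters hold; the AP-1 site TGANTCA, held by 7.81%; the TCF/LEF site CTTTGAT, held by 3.73%; and the HNF4 site CAAAGTCCA, held by 0.475%. The first and the second can overlap, but did not overlap in the windows printed here. Counted from the start site, the antioxidant response element core was matched at -134 to -126 at Gclm, at -92 to -84 at Txnrd1 and at 28 to 36 at Srxn1. The AP-1 site was matched at Srxn1 only among the 13 entries, at -102 to -96 and at -45 to -39. The entries of Gpx1, Gpx2, Gpx4, Gss and Nqo1 held none of these letters. A match is a description of the sequence, not of binding.

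Levels are given in TPM, which is corrected for transcript length and can be compared between genes, and differences between cultures as log2 fold changes of TMM-normalised expected counts from edgeR's quasi-likelihood test, called at a Benjamini-Hochberg adjusted p under 0.01. From CV to EN, 5 of the 10 genes rose (Gpx1, Gpx4, Gclm, Nqo1 and Srxn1) and 3 fell (Gpx2, Gsr and Txnrd1, the last with the opposite sign on the deposited mRNA copies), whereas Gclc and Gss were not called. Of all 9288 transcripts tested, 76.4% were called between EN and CV, 35.2% higher and 41.2% lower in EN. The 8 of 10 called genes are therefore close to the share of all transcripts. Between EN and ENR, 7 rose and 2 fell (1 of the rises, Txnrd1, turned its sign with spike-in scaling), against 72.7% of all transcripts called, 35.5% higher and 37.2% lower. Between CV and ENR, 6 were higher in CV and 2 lower, against 60% of all transcripts, 30.2% higher and 29.8% lower. The 3 comparisons share cultures and are not independent of each other. The 10 log2 fold changes from CV to EN had a median of 0.59 and ranged from -4.12 to 1.90, and the median over all transcripts was -0.08. Changes of at least 2-fold were found for 5 genes that rose and 2 that fell from CV to EN, against 15.2% and 20.1% of all transcripts, for 3 and 2 from ENR to EN, against 13.1% and 17%, and for 1 (Gpx2) higher and 0 lower in CV than in ENR by edgeR, against 6.74% and 6.17%. The 4 values of both cultures did not overlap for 9 of 10 genes between EN and CV, 9 between EN and ENR and 8 between CV and ENR, against 76.5%, 74.2% and 65.7% of all transcripts.

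**Figure D1:**
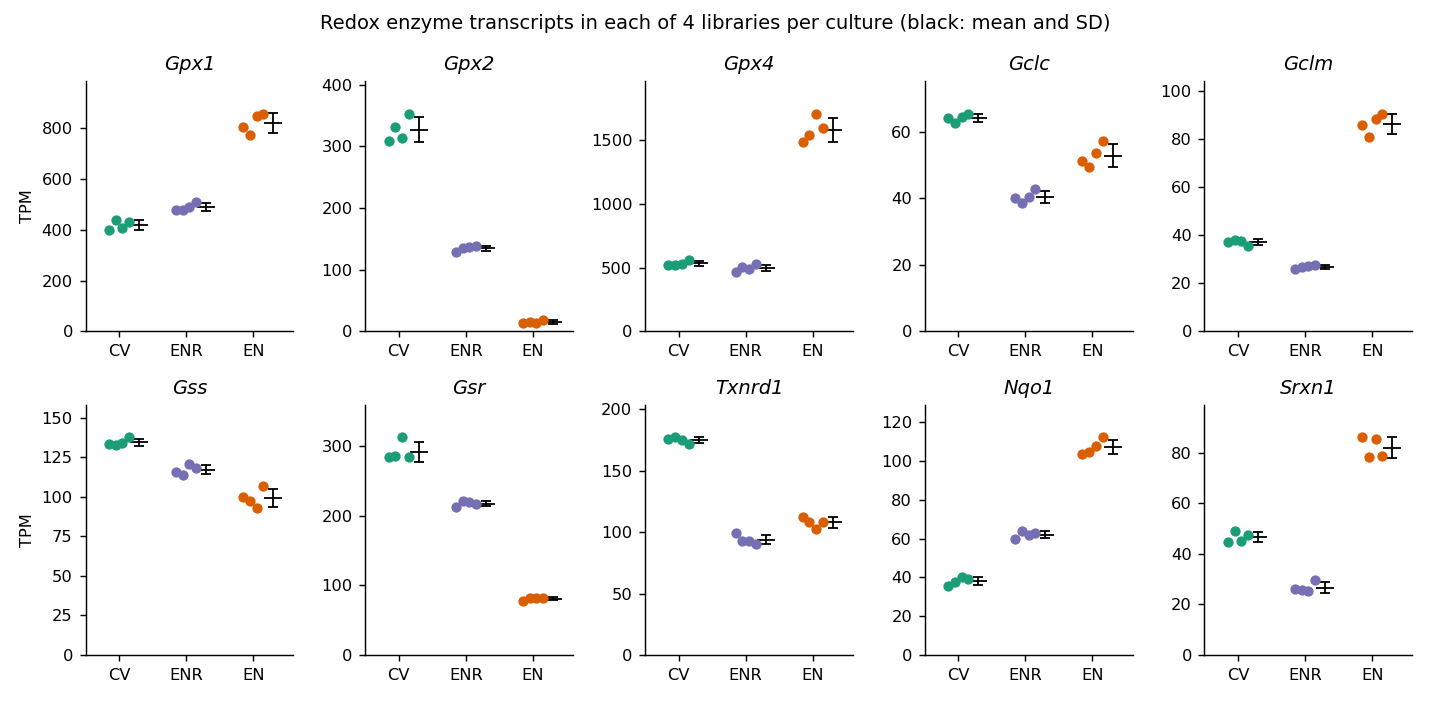
TPM of each gene (linear axis from 0) in each of the 4 libraries of CV, ENR and EN, with the mean and SD in black. The EN libraries lie between 12.8 and 19.0 TPM for Gpx2 and between 1488 and 1710 TPM for Gpx4, apart from both other cultures; the lower Gclc, Gss and Txnrd1 in EN than in CV seen here have the opposite sign on the deposited mRNA copies, and Gclc also in the fitted counts.

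The 3 glutathione peroxidases went apart. Gpx2 RNA stood at 308, 332, 314 and 353 TPM in the 4 CV libraries, at 128, 135, 137 and 138 TPM in ENR, and at 12.9, 15.1, 12.8 and 19.0 TPM in EN. Every CV library was above every ENR library, and every ENR library was far above every EN library. Gpx2 was 17.4-fold lower in EN than in CV (log2 fold change -4.12 ± 0.08 SE, adjusted p = 8.9e-16, edgeR quasi-likelihood test), 7.96-fold lower in EN than in ENR (-2.99 ± 0.09, adjusted p = 8.4e-14) and 2.18-fold higher in CV than in ENR (1.13 ± 0.06, adjusted p = 4.0e-10). Its fall from CV to EN lay at the 2.5th percentile of the log2 fold changes of all transcripts tested, the lowest place among the 10 genes. The EN values rest on 51 to 92 counts per library, against 1296 to 1623 in CV.

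Gpx4 was the most abundant of the 10 transcripts. It stood at 523, 520, 532 and 562 TPM in CV, at 468, 505, 491 and 525 TPM in ENR, and at 1488, 1542, 1710 and 1595 TPM in EN. The EN libraries did not overlap with the others, while the CV and ENR libraries overlapped with each other. Gpx4 was 3.72-fold higher in EN than in CV (1.90 ± 0.05, adjusted p = 1.0e-14) and 3.59-fold higher than in ENR (1.85 ± 0.05, adjusted p = 1.7e-14), by edgeR. Between CV and ENR it was not called (-0.05, 95% interval -0.15 to 0.04, adjusted p = 0.36 by edgeR), and the sign turned on TPM, where the difference was 0.10. At 1584 ± 95.1 TPM (SD, n = 4), Gpx4 in EN exceeded 98.8% of all transcripts.

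Gpx1 stood at 400, 439, 408 and 431 TPM in CV, at 479, 477, 490 and 511 TPM in ENR, and at 806, 775, 850 and 858 TPM in EN. The cultures did not overlap, and the order was CV, ENR, EN. It rose 2.46-fold from CV to EN (1.30 ± 0.04, adjusted p = 1.1e-13) and 1.89-fold from ENR to EN (0.92 ± 0.04, adjusted p = 7.3e-12), and was 1.30-fold lower in CV than in ENR (-0.38 ± 0.04, adjusted p = 7.7e-07), by edgeR. The makeup of the peroxidase RNA therefore differed between cultures: Gpx2 held 25.5% ± 0.57 (SD, n = 4) of the summed TPM of Gpx1, Gpx2 and Gpx4 in CV, 11.99% ± 0.23 in ENR and 0.62% ± 0.12 in EN, whereas Gpx4 held 41.7% ± 1.0, 44.3% ± 0.77 and 65.4% ± 1.0. These shares are a description chosen after the values were seen, without a test.

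Of the enzymes that make glutathione, 1 of 3 changed by more than 2-fold. Gclm stood at 37.2, 38.1, 37.6 and 35.4 TPM in CV, at 25.9, 26.7, 26.9 and 27.8 TPM in ENR, and at 85.7, 80.7, 88.5 and 90.6 TPM in EN. All EN libraries were above all CV libraries, which in turn were above all ENR libraries. The rise was 2.91-fold from CV to EN (1.54 ± 0.05, adjusted p = 1.3e-13) and 3.61-fold from ENR to EN (1.85 ± 0.05, adjusted p = 2.9e-14), and Gclm was 1.24-fold higher in CV than in ENR (0.31 ± 0.05, adjusted p = 1.1e-04), by edgeR.

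Gclc, the catalytic partner of Gclm, did not follow it. Its values were 64.1, 62.6, 64.3 and 65.4 TPM in CV, 39.9, 38.6, 40.4 and 42.8 TPM in ENR, and 51.1, 49.4, 53.7 and 57.2 TPM in EN. In TPM the cultures did not overlap and CV was highest, but on TMM-normalised counts CV and EN could not be told apart: EN differed from CV by 0.04 on the log2 scale, with a 95% interval of -0.05 to 0.13 (adjusted p = 0.44, edgeR), and -0.28 on log2(TPM + 1). Gclc was 1.46-fold higher in EN than in ENR (0.55 ± 0.05, adjusted p = 5.5e-08) and 1.42-fold higher in CV than in ENR (0.51 ± 0.05, adjusted p = 2.3e-07), by edgeR. The Gclm to Gclc ratio of TPM was 0.579 ± 0.028 (SD, n = 4) in CV, 0.664 ± 0.020 in ENR and 1.64 ± 0.039 in EN, so that Gclm exceeded its partner only in EN among the 3 cultures.

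Gss varied least. It stood at 133, 133, 134 and 138 TPM in CV, at 116, 114, 121 and 118 TPM in ENR, and at 100, 97.2, 93.0 and 107 TPM in EN. None of its differences was called: -0.12 from CV to EN (95% interval -0.20 to -0.04, adjusted p = 0.013), -0.08 from ENR to EN (-0.16 to 0.00, adjusted p = 0.094) and 0.04 between CV and ENR (-0.04 to 0.12, adjusted p = 0.37), all by edgeR. The scaling decided both sign and call for this gene: the difference from CV to EN was -0.44 on TPM (adjusted p = 2.4e-07, limma) but 0.71 on the deposited mRNA copies, and without EN replicate 4 it was called by edgeR at -0.15 (adjusted p = 1.6e-03).

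The NADPH-dependent reductases of both systems moved apart as well. Gsr stood at 285, 286, 313 and 284 TPM in CV, at 213, 222, 219 and 217 TPM in ENR, and at 78.1, 82.4, 82.2 and 81.5 TPM in EN. The cultures did not overlap, with CV highest and EN lowest. Gsr fell 2.89-fold from CV to EN (-1.53 ± 0.04, adjusted p = 3.6e-14) and 2.40-fold from ENR to EN (-1.27 ± 0.04, adjusted p = 4.2e-13), and was 1.20-fold higher in CV than in ENR (0.27 ± 0.04, adjusted p = 3.0e-05), by edgeR.

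Txnrd1 was instead lowest in ENR. Its values were 176, 177, 175 and 172 TPM in CV, 99.0, 93.1, 92.6 and 90.3 TPM in ENR, and 112, 108, 102 and 109 TPM in EN. It was 1.67-fold higher in CV than in ENR (0.74 ± 0.04, adjusted p = 1.6e-10, edgeR). From CV to EN it fell 1.30-fold (-0.38 ± 0.04, adjusted p = 1.1e-07, edgeR), although the sign was positive on the deposited mRNA copies (0.44, adjusted p = 0.12, limma), and it was 1.29-fold higher in EN than in ENR (0.36 ± 0.04, adjusted p = 3.1e-07, edgeR), although spike-in scaling of the counts gave -0.15 (adjusted p = 0.45). Gsr exceeded Txnrd1 by 1.67 ± 0.080 (SD, n = 4) times in CV and by 2.33 ± 0.12 times in ENR, whereas the ratio of Gsr to Txnrd1 was 0.752 ± 0.045 in EN.

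Nqo1 and Srxn1, the quinone reductase and the peroxiredoxin repair enzyme, both rose in EN but differed in CV. Nqo1 stood at 35.4, 37.4, 40.2 and 39.1 TPM in CV, at 59.5, 63.7, 61.8 and 62.9 TPM in ENR, and at 104, 105, 108 and 112 TPM in EN. It was 3.52-fold higher in EN than in CV (1.81 ± 0.05, adjusted p = 3.4e-14), 1.94-fold higher in EN than in ENR (0.96 ± 0.05, adjusted p = 4.5e-11) and 1.81-fold lower in CV than in ENR (-0.86 ± 0.05, adjusted p = 1.6e-09), by edgeR. Nqo1 and Gpx1 were the genes among the 10 called lower in CV than in ENR.

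Srxn1 stood at 44.8, 49.1, 45.2 and 47.4 TPM in CV, at 26.1, 25.7, 25.1 and 29.6 TPM in ENR, and at 86.1, 78.2, 85.3 and 78.6 TPM in EN. As for Gclm, the order was ENR, CV, EN without overlap. Srxn1 was 2.19-fold higher in EN than in CV (1.13 ± 0.05, adjusted p = 1.5e-11), 3.44-fold higher in EN than in ENR (1.78 ± 0.06, adjusted p = 1.5e-13) and 1.57-fold higher in CV than in ENR (0.65 ± 0.06, adjusted p = 1.1e-07), by edgeR.

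**Figure D2:**
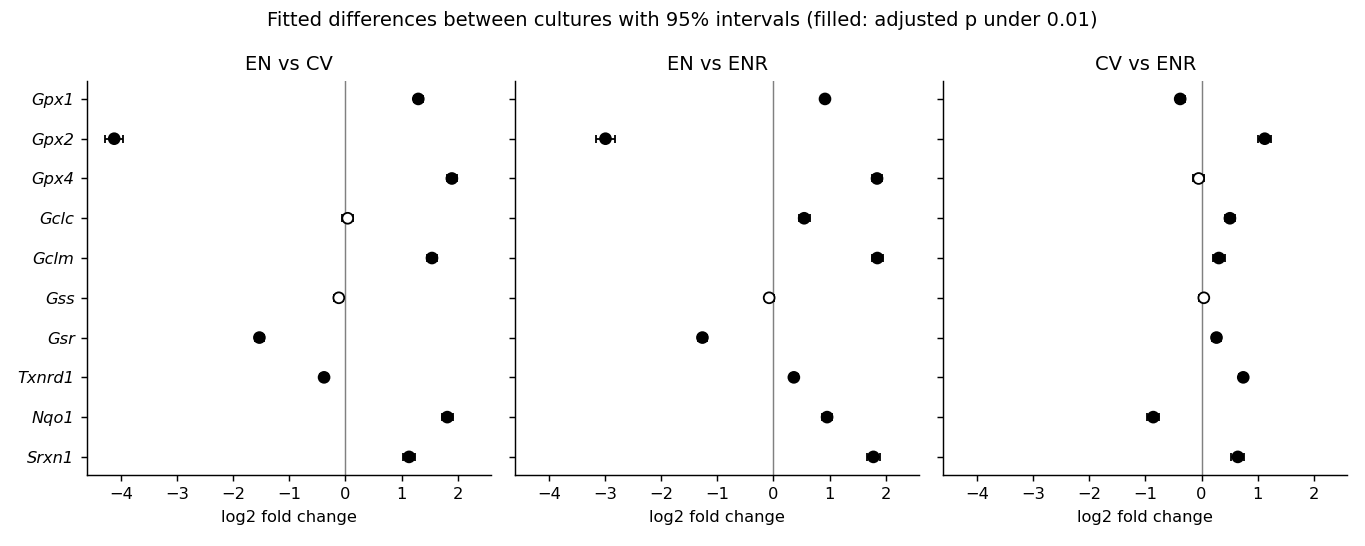
Log2 fold change of each gene (x axis, edgeR on TMM-normalised counts) with its 95% interval, for EN against CV, EN against ENR and CV against ENR, filled where the adjusted p is under 0.01. Gpx2 stands at -4.12 in the first panel and Gpx4 at 1.90; the signs of Gclc, Gss and Txnrd1 against CV, of Gss and Txnrd1 between EN and ENR, and of Gpx4 and Gss between CV and ENR turned under at least 1 other scaling.

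Within each culture the order of the levels differed. In CV it ran Gpx4, Gpx1, Gpx2, Gsr, Txnrd1, Gss, Gclc, Srxn1, Nqo1 and Gclm, where the values of Gpx2 and Gsr overlapped, as did those of Nqo1 and Gclm. In ENR it ran Gpx4, Gpx1, Gsr, Gpx2, Gss, Txnrd1, Nqo1, Gclc, Gclm and Srxn1, where Gpx4 and Gpx1 overlapped (497 ± 24.1 and 490 ± 15.7 TPM, SD, n = 4), as did Gclm and Srxn1. In EN, Gpx4 and Gpx1 led, Txnrd1, Nqo1 and Gss overlapped in that order at 108, 107 and 99.2 TPM, Gclm, Srxn1 and Gsr overlapped at 86.4, 82.0 and 81.1 TPM, and Gclc and Gpx2 came last. Gpx2 thus went from rank 3 of the 10 genes in CV to rank 10 in EN. The ratio of Gpx2 to Gpx1 was 0.779 ± 0.028 (SD, n = 4) in CV, 0.274 ± 0.0077 in ENR and 0.0182 ± 0.0032 in EN, and that of Gpx2 to Gpx4 was 0.612 ± 0.025, 0.271 ± 0.0074 and 0.00947 ± 0.0019. A scaling factor per library cancels in such ratios. They were picked after the values were seen and carry no test.

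**Figure D3:**
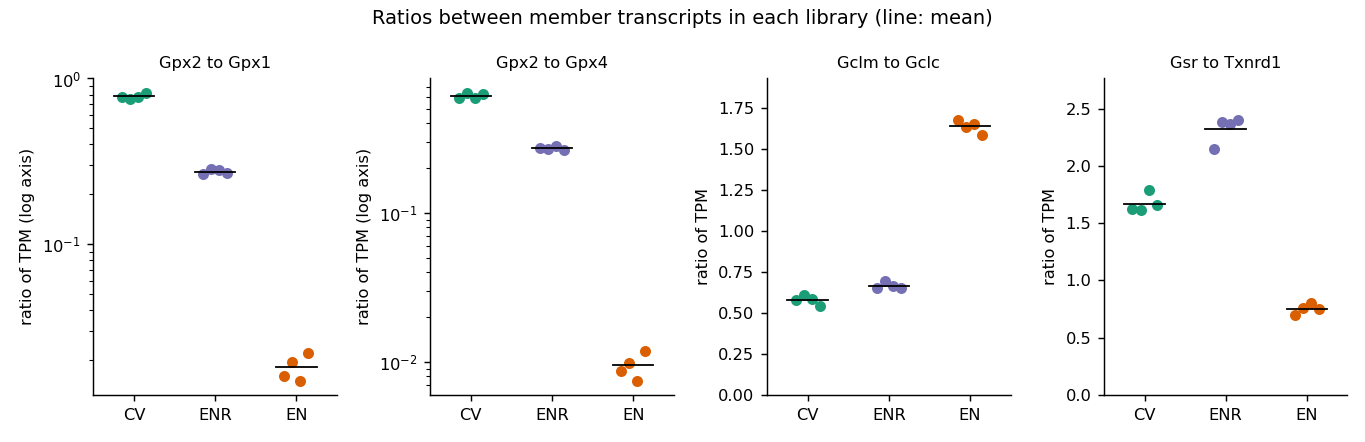
Ratios of TPM between member transcripts in each of the 4 libraries per culture, with the mean as a line (log axis for both Gpx2 panels, linear from 0 for the others). The Gpx2 to Gpx4 ratio is at most 0.0119 in EN and at least 0.589 in CV, and Gclm to Gclc is at least 1.58 in EN and at most 0.691 in the other cultures.

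The scaling of the libraries moved the median over all transcripts. The mRNA copies did not follow TPM by a common factor per library. In EN replicate 1, Gpx4 had 1488 TPM and 4006 copies, and Gpx2 12.9 TPM and 17.6 copies. From CV to EN, the log2 fold changes of all transcripts had a median of -0.08 after TMM, -0.34 on log2(TPM + 1), 0.62 on the deposited mRNA copies and -0.49 when the counts were scaled to the spike-ins, and the called transcripts were split into 3267 higher and 3829 lower, 2263 and 4976, 4418 and 1258, and 1473 and 4292. From ENR to EN the medians were -0.01, -0.14, 0.88 and -0.52, with 3301 and 3455, 2677 and 4045, 5497 and 789, and 1094 and 4275. Between CV and ENR they were -0.01, 0.13, 0.20 and -0.10, with 2804 and 2765, 3713 and 1895, 1409 and 461, and 1039 and 1597. Relative to these medians the genes with large differences moved little. Gpx2 from CV to EN stood at -4.04, -4.03, -4.23 and -4.06 relative to the median under the 4 scalings, Gpx4 between 1.91 and 2.34, Gclm at 1.62, 1.54, 1.85 and 1.62, and Gsr at -1.46, -1.50, -1.42 and -1.46. Txnrd1 was below the median under all 4 (-0.30, -0.35, -0.17 and -0.30) and Gclc above it (0.12, 0.06, 0.24 and 0.11), whereas Gss fell on both sides (-0.04, -0.10, 0.10 and -0.04). Without centring, Gsr between EN and ENR lost its call on the mRNA copies (-0.43, adjusted p = 0.13, limma), and spike-in scaling took the call between EN and ENR from Gpx1 (0.40, adjusted p = 0.034), Gclc (0.04, adjusted p = 0.87) and Nqo1 (0.44, adjusted p = 0.029). Between CV and ENR, Gpx1, Gclc, Gclm and Gsr lost their calls both on the mRNA copies and with spike-in scaling. Nqo1 lost its call there on the copies only, and Srxn1 with spike-in scaling only. The deposited mRNA copies were themselves uneven within a culture, with summed copies of 498750 to 1577570 among the 4 ENR libraries.

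The cell types of the cultures differed along with these genes. Summed TPM of 8 stem cell and proliferation markers was 330 to 367 in CV, 966 to 1055 in ENR and 20.0 to 22.9 in EN. For 10 enterocyte markers it was 19988 to 21095, 10780 to 12467 and 59116 to 66270, for 11 of 12 secretory markers 6136 to 6808, 16036 to 17447 and 8641 to 9098, and for 7 of 10 mesenchymal and immune markers 3.64 to 5.43, 6.96 to 9.39 and 16.5 to 21.9. These sums weigh abundant genes most. The secretory sum was lower in EN than in ENR, yet of its 11 transcripts 7 were called higher in EN and 4 lower by edgeR. Their median log2 fold change was 1.58. Lyz1 had 974 CPM in EN and 2579 in ENR, and Muc2 739 and 111. Between CV and ENR, Olfm4 had a mean of 10.9 CPM in CV and 1229 in ENR, where Cd44, another of the stem cell and proliferation markers, had 147 and 36.1. Of the 9 stem cell and proliferation transcripts, 2 were called higher in CV than in ENR and 5 lower, Lgr5 among the latter (90.1 and 129 CPM). Of the 10 enterocyte transcripts, 4 were called higher in CV than in ENR and 5 lower. Fabp1 had 3192 CPM in CV and 1459 in ENR, and Sis 1235 and 4475. Intestinal epithelial markers such as Vil1, Fabp1 and Sis were abundant in all 3 cultures, and Col1a1 and Col1a2, which define fibroblasts, had at most 9 counts in any library, whereas Vim had 20 to 25 counts in CV and 115 to 180 in EN, and the leukocyte marker Ptprc 0 to 1 and 8 to 23. Of the stem cell and proliferation transcripts 9 of 9 fell from CV to EN, of the enterocyte transcripts 10 of 10 rose, of the secretory ones 9 rose and 2 fell, and of 6 mesenchymal and immune ones 2 rose (Vim and Ptprc). The part of cell makeup in the values of the redox genes was not tested, and in these bulk libraries fewer cells of a type and less RNA per cell cannot be told apart. Over the 12 libraries, the transcripts whose log2 CPM was most alike to Gpx4 were Adipor2 (Pearson r 0.9987), Cyp3a13 (0.9983) and Aldh3a2 (0.9982), and those most alike to Gpx2 were Cldn2 (0.9989), Idh2 (0.9973) and Prps2 (0.9973). Such values are a description, since 3 cultures of 4 libraries each carry the pattern.

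Around the 10 genes, other parts of the redox network were read from fixed lists. These counts stand beside 35.2% and 41.2% of all transcripts called higher and lower in EN than in CV. Of 25 transcripts of glutathione S-transferases, which conjugate glutathione to other compounds, 20 rose and 2 fell from CV to EN, with a median of 1.68 (1.35 on TPM, 2.73 on the mRNA copies and 1.25 with spike-in scaling). Gsta1 rose by 4.27 on the log2 scale (SE 0.06, adjusted p = 4.4e-17, edgeR). Gstm4 (XM_006501021.3) had 0 counts in all 4 CV libraries and 27 to 109 in EN, at least 26.4-fold higher against a floor of 3 counts per CV library, and the median of the list was the same with it at this bound. Gstm5 fell by 2.32 (SE 0.09, adjusted p = 9.1e-13, edgeR). Reads of the closely similar Gstm and Gsta genes may have been split between them. Of 14 transcripts for cysteine supply and glutathione breakdown, 9 rose and 3 fell, with a median of 1.06 (0.72 on TPM, 1.94 on the copies and 0.64 with spike-in scaling). Ggt1, which splits extracellular glutathione at the brush border, rose by 5.79 (SE 0.08), and Slc1a4, an amino acid transporter, fell by 3.54 (SE 0.07).

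Among 13 transcripts of thioredoxins, glutaredoxins and their reductases, 4 rose and 5 fell, with a median of 0.04. Txn1, the cytosolic substrate of Txnrd1, rose by 1.13 (SE 0.04, adjusted p = 2.1e-13, edgeR) where Txnrd1 fell by 0.38 (0.44 on the deposited mRNA copies). Mitochondrial Txn2 and the 2 transcripts of Txnip, which encodes an inhibitor of thioredoxin, were not called (0.16, 0.04 and -0.08). The largest rise was that of Txndc17, by 1.26 (SE 0.05), and the largest fall that of Nxn, nucleoredoxin, which fell by 5.15 (SE 0.17). The median of this list was -0.28 on TPM, 0.88 on the mRNA copies and -0.40 with spike-in scaling. Of the 6 peroxiredoxins, 1 rose and 3 fell, with a median of -0.23 that was 0.63 on the mRNA copies. Prdx4, the peroxiredoxin of the endoplasmic reticulum, fell by 2.94 (SE 0.11), and by 2.32 on the copies. Mitochondrial Prdx3 fell by 0.91 (SE 0.04) and Prdx5 rose by 0.81 (SE 0.06), but the first was not called on the copies (-0.13) and the second not with spike-in scaling (0.40). Prdx6 fell by 0.40 (SE 0.03), with the opposite sign on the copies (0.44). Prdx1 and Prdx2 were not called (0.08 and -0.05). Of superoxide dismutases and catalase, Cat rose by 2.93 (SE 0.04) and Sod1 by 0.76 (SE 0.05), the latter not called with spike-in scaling (0.35), and Sod2 fell by 0.21 (SE 0.04), with the opposite sign on the copies (0.59).

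Of 12 transcripts for NADPH supply, 4 rose and 6 fell, with a median of -0.35 (0.45 on the copies). Idh1 rose most (2.76 ± 0.05 SE) and Mthfd1 fell most (-3.10 ± 0.07). Of 8 regulators of Nrf2, 4 rose and 2 fell, with a median of 0.38 (-0.04 with spike-in scaling). Sqstm1, which binds Keap1, rose by 1.16 (SE 0.04). Keap1, which targets Nrf2 for degradation, rose by 0.50 (SE 0.05), not called with spike-in scaling (0.08), and Dpp3 fell by 0.36 (SE 0.05), with the opposite sign on the copies (0.44). Of 16 other Nrf2 target transcripts, 8 rose and 8 fell, with a median of 0.21 (-0.11 on TPM, 1.06 on the copies and -0.22 with spike-in scaling), from Cbr1 (1.95 ± 0.09) to Abcc4 (-3.86 ± 0.14). Between CV and ENR, 9 of these 16 were higher in CV and 1 lower, beside 30.2% and 29.8% of all transcripts. Of 9 transcripts for selenoprotein synthesis, 3 rose and 3 fell, with a median of -0.18 (0.61 on the copies), from Sephs2 (0.86 ± 0.03, not called with spike-in scaling at 0.44) to Eefsec (-1.27 ± 0.12, not called on the copies at -0.52). Of 9 other selenoproteins, 3 rose and 2 fell, with a median of -0.06 (0.80 on the copies), from Dio1 (2.86 ± 0.26) to Selm (-2.44 ± 0.09). No other glutathione peroxidase was tested.

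Chromatin was read from 94469 regions, the union of all peaks. Regions within 500 bases of an annotated start site are called promoter regions here, of which there were 13 for all 10 genes, and 75 further regions lay within 20000 bases of the genes. Scores are read counts that the authors normalised between libraries and rounded. The log2(score + 1) of the 3 cultures was compared in limma with a moderated F test, called at an adjusted p under 0.05. Before the results, some libraries stood apart. In H3K27ac, CV replicates 3 and 4 and EN replicate 2 had 5, 411 and 1379 regions at 0 where the other libraries had 7819 to 17027, and in H3K4me3, EN replicate 1 had 7193 where the others had 20990 to 44224. The median log2 H3K27ac difference over all regions was 0.33 between CV and ENR, -0.14 from CV to EN and 0.25 from ENR to EN.

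Open chromatin, measured by ATAC-seq, differed at 5 of 13 promoter regions, against 37.2% of all regions near start sites: those of Gpx2, Gpx4, Nqo1 and Srxn1 and 1 of the Gss regions. H3K27ac, a mark of active promoters and enhancers, differed at 6 of 13, against 18.3%: at Gpx1, Gpx2, Gpx4, Srxn1 and 1 region each of Gss and Gsr. These shares depend on the score. In a fit of only the regions with a mean score of at least 10, 59.9% were called for ATAC and 25.7% for H3K27ac. Most of the 13 promoter regions had such scores. Leaving out the 3 H3K27ac libraries that stood apart leaves 1 CV library, so that fit cannot show whether these 6 calls hold. The scores of the other libraries are given below for Gpx2 and Gpx4. H3K4me3, a promoter mark, was called by limma at 0 of 13, with 4 at an unadjusted p under 0.05, against 8.82% of all regions near start sites called. Without EN replicate 1 it was called at 3 of 13 (Gpx4, Gclm and Srxn1, adjusted p = 0.019, 0.032 and 0.033), and without EN replicate 4 at 1 (Gpx2, adjusted p = 0.017). H3K27me3, a repressive mark, was called by limma at 0 of 13, with 1 at an unadjusted p under 0.05, against 1.6% of all regions near start sites, and its mean scores stayed between 1.67 and 16.0 at these promoters in every culture.

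The Gpx2 promoter region (chr12:77894689-77896708) followed its RNA between EN and the other cultures. ATAC scores were 58, 76, 70 and 70 in CV, 63, 61, 61 and 70 in ENR, and 14, 31, 32 and 33 in EN (adjusted p = 6.0e-05, limma F test). H3K27ac scores were 105, 223 and 98 in CV, 141, 82 and 132 in ENR, and 23, 26 and 37 in EN (adjusted p = 1.9e-05). Every EN library was below every other library in both, while CV and ENR overlapped. In the 6 H3K27ac libraries that did not stand apart, CV had 98, ENR 82 to 141 and EN 26 and 37. The H3K27ac call was lost without limma's variance trend (adjusted p = 0.082), where only 3 of all 94215 regions tested were called. H3K4me3 scores had means of 105, 70.3 and 26.7 in CV, ENR and EN and were not called (adjusted p = 0.051).

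At the Gpx4 promoter region (chr10:79516051-79517794), H3K27ac scores were 70, 47 and 46 in CV, 121, 97 and 143 in ENR, and 272, 233 and 306 in EN (adjusted p = 3.2e-07, limma F test). The 3 cultures did not overlap, and EN was highest. In the libraries that did not stand apart, CV had 46, ENR 97 to 143 and EN 233 and 306. The call was lost without the variance trend (adjusted p = 0.075), as were nearly all H3K27ac calls (3 of 94215 regions left). ATAC scores were 82, 94, 88 and 65 in CV, 131, 122, 98 and 122 in ENR, and 106, 163, 124 and 111 in EN (adjusted p = 0.0050), so that CV was below both others, which overlapped. The ATAC scores and H3K27ac scores of ENR were above those of CV here, where the RNA of both cultures was not told apart.

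Srxn1 and Txnrd1 had further regions at a distance that differed. The Srxn1 promoter region (chr2:151931058-151932523) had ATAC scores of 96, 86, 86 and 89 in CV, 83, 76, 93 and 67 in ENR, and 127, 114, 113 and 115 in EN (adjusted p = 0.0018, limma F test), and H3K27ac scores of 50, 137 and 127, of 111, 109 and 118, and of 170, 227 and 222 (adjusted p = 0.017). EN lay above the other cultures in both. A region inside the Srxn1 gene that overlaps an exon (chr2:151935147-151935446), centred 3830.5 bases from the nearest start site, had ATAC scores of 19, 19, 23 and 24 in CV, 43, 33, 31 and 33 in ENR, and 60, 69, 62 and 74 in EN (adjusted p = 1.1e-06), and H3K27ac scores of 5, 1 and 11, of 6, 3 and 4, and of 35, 14 and 25 (adjusted p = 0.027). Its ATAC order, CV, ENR, EN, was not that of the RNA, which was lowest in ENR.

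The Txnrd1 promoter region had ATAC means of 143, 141 and 131 (adjusted p = 0.57, limma F test). In contrast, a Txnrd1 region outside annotated exons (chr10:82338899-82339512), centred 16119.5 bases from the nearest start site, had ATAC scores of 53, 61, 63 and 80 in CV, 102, 102, 89 and 92 in ENR, and 224, 235, 174 and 225 in EN (adjusted p = 6.9e-08), and H3K27ac scores of 13, 20 and 31, of 29, 18 and 39, and of 68, 47 and 75 (adjusted p = 0.035). EN was above both other cultures at this region, while Txnrd1 RNA was highest in CV (its sign between EN and CV turned on the deposited mRNA copies).

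Upstream of Gpx2, a region that overlaps an exon of Rab15 and lies within the gene body of Fntb (chr12:77899409-77899768), centred at -3047.5 bases, was most open in ENR. Its ATAC scores were 11, 18, 16 and 15 in CV, 29, 34, 30 and 35 in ENR, and 7, 4, 3 and 4 in EN (adjusted p = 4.7e-07, limma F test), and H3K27ac scores were 2, 17 and 13, then 32, 24 and 39, then 8, 3 and 2 (adjusted p = 0.012). The cultures did not overlap in ATAC, and CV was below ENR although Gpx2 RNA was highest in CV. A neighbour centred at -2660 bases had mean ATAC scores of 6.00, 24.5 and 8.25 (adjusted p = 8.1e-05). Gpx4 had a region at -1285 bases whose H3K27ac scores were 5, 1 and 6 in CV, 5, 8 and 11 in ENR, and 30, 33 and 47 in EN (adjusted p = 0.0016). An intergenic region centred at -13788.5 bases from a Gpx4 start site had H3K27ac scores of 9, 45 and 48, of 56, 37 and 59, and of 181, 160 and 166 (adjusted p = 1.6e-04). The H3K27ac scores of the regions beyond promoters were fitted with all 9 libraries only. Of the 75 regions beyond promoters, 24 were called for ATAC, against 39.7% of all regions, 7 for H3K27ac, against 6.65%, 4 of 71 tested for H3K4me3, against 6.38%, and 0 for H3K27me3 by limma, with 8 at an unadjusted p under 0.05, against 0.984%. Regions near these genes also lie near other genes. The gene named with a region is the one whose start site the distance was taken from, and a link between them was not tested.

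The central 300 bases of the regions at Gpx2 (chr12:77899439-77899738), Txnrd1 (chr10:82339056-82339355) and Srxn1 (chr2:151935147-151935446) are shown. They lie beyond promoters and were called for both ATAC and H3K27ac, and their ATAC scores separated the 3 cultures without overlap. Regions beyond promoters called in both but not shown were centred at -2660 bases at Gpx2, and at -1285 and 826 bases at Gpx4. The Gpx2 window is written on the minus strand of mm9 and the Txnrd1 and Srxn1 windows on the plus strand, each in the direction of its gene. Motif matches are in capitals.
Gpx2 region: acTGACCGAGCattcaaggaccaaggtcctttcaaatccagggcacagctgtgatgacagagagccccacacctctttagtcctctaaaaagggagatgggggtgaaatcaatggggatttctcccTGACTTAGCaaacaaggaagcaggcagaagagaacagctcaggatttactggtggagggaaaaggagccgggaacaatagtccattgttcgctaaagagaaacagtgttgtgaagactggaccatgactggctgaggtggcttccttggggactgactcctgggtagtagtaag
Txnrd1 region: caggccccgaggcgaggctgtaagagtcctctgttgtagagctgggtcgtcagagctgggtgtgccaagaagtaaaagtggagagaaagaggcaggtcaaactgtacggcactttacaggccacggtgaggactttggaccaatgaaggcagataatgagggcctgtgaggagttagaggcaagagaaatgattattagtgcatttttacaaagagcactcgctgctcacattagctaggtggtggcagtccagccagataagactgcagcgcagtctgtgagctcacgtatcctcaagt
Srxn1 region: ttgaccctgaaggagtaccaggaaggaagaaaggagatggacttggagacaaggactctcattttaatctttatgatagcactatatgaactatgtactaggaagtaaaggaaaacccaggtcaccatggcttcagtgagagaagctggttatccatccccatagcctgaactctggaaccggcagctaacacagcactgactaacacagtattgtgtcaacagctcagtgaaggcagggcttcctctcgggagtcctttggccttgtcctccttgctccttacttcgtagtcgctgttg

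The Gpx2 region held 2 matches to the antioxidant response element core, which 13.4% of the central 300 bases of all regions hold at least once. The windows at Txnrd1 and Srxn1 held no match to any of the 4 motifs. Of the windows not shown, that of Gpx2 held 1 match to the antioxidant response element core. The Gpx4 window at -1285 bases held 1 match to the AP-1 site, and that at 826 bases no match. In the same windows of all regions the AP-1 site was matched in 17.2%, the TCF/LEF site in 5.57% and the HNF4 site in 2.28%. Among promoter regions, the central 300 bases of the Gsr regions centred at -46.5 and 15.5 bases held the antioxidant response element core. Those of the Gpx1 region and the main Gss region held the AP-1 site. The other promoter regions, that of Gclc among them, held no match in these bases to any of the 4 motifs.

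**Figure D4:**
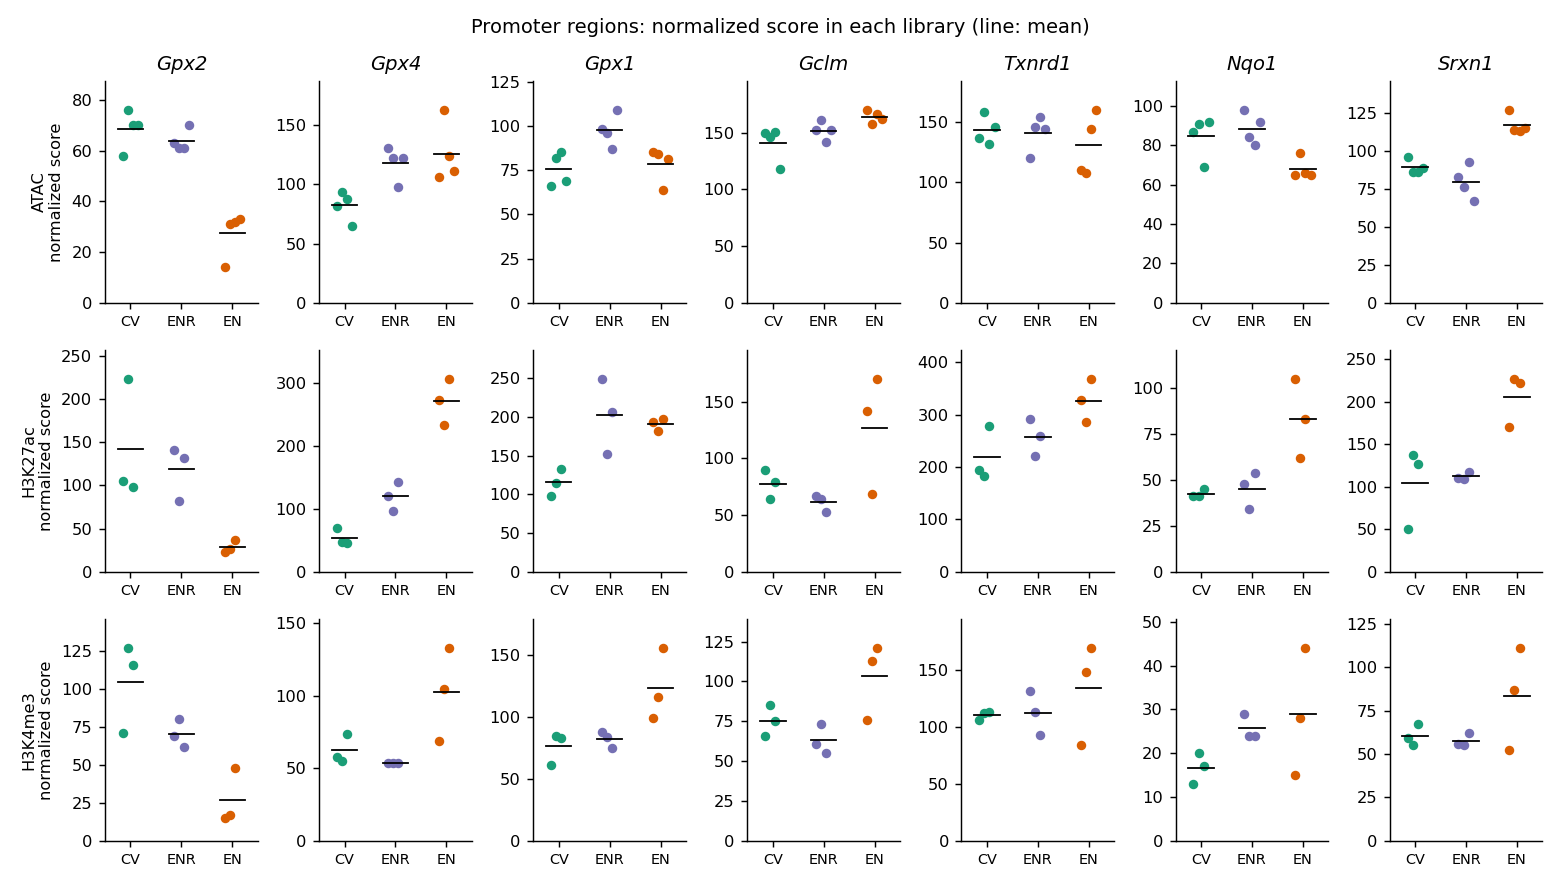
Normalised ATAC, H3K27ac and H3K4me3 scores (rows, linear axes from 0) of each library at 7 promoter regions, with the mean as a line. EN libraries lie lowest at Gpx2 in ATAC (14 to 33) and H3K27ac (23 to 37) and highest at Gpx4 in H3K27ac (233 to 306).

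**Figure D5:**
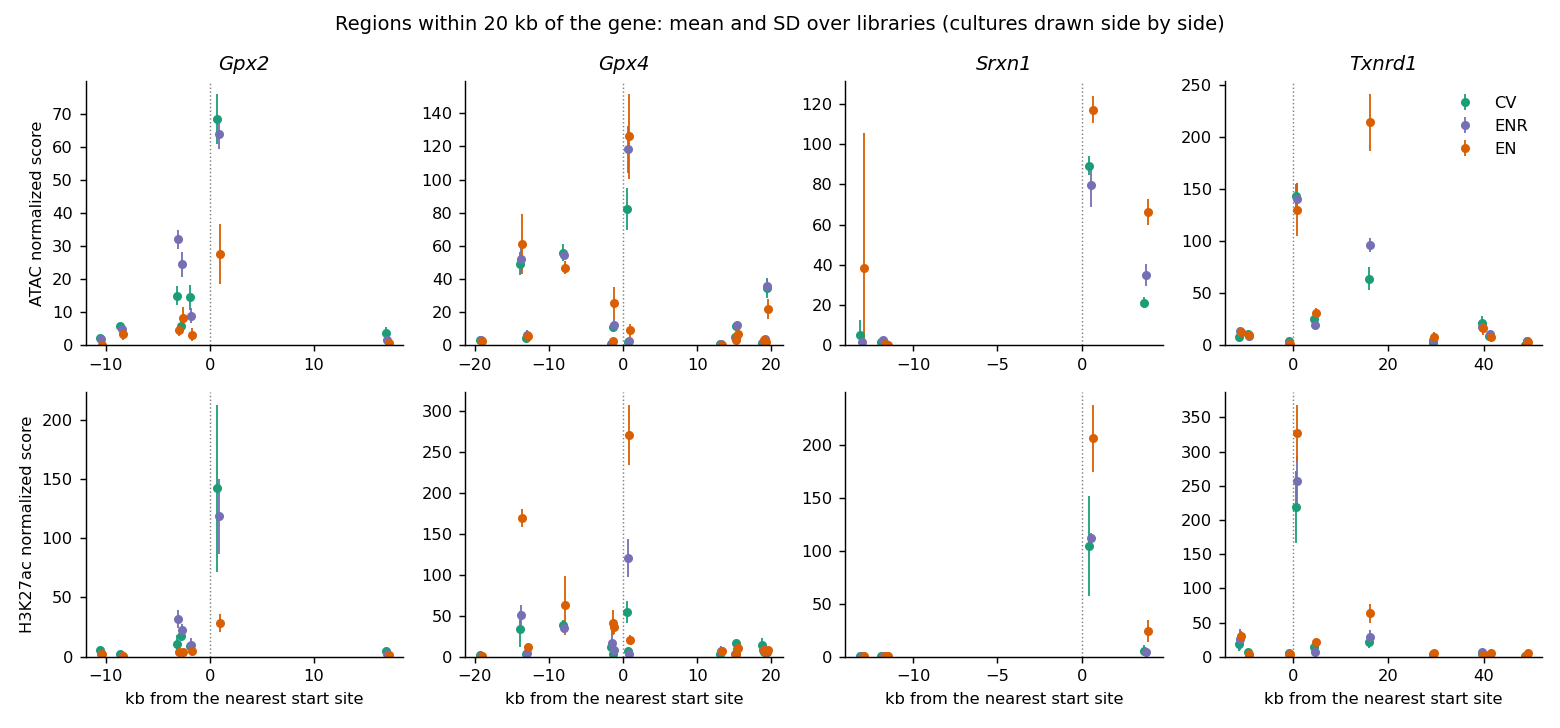
Mean and SD of ATAC and H3K27ac scores (linear axes from 0) of all regions within 20 kb of Gpx2, Gpx4, Srxn1 and Txnrd1, against the distance in kb from the nearest start site of the gene, with the cultures drawn side by side. The Txnrd1 region near 16.1 kb reaches a mean ATAC score of 214 in EN against 64.2 in CV, while the promoter region has similar means in the 3 cultures.

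At the other promoters the differences were smaller or less sure. Gpx1 had mean H3K27ac scores of 115, 203 and 191 in CV, ENR and EN (adjusted p = 0.016, limma F test). Nqo1 had mean ATAC scores of 84.8, 88.5 and 68.0 (adjusted p = 0.039), lower in EN where its RNA was highest, and this call was lost when any library was left out except CV replicate 3, ENR replicate 3 or EN replicate 2 (adjusted p = 0.053 to 0.094). A weak Gss region inside the gene (chr2:155400448-155400833) had ATAC scores of 16, 12, 9 and 14, of 25, 25, 22 and 24, and of 7, 7, 4 and 7 (adjusted p = 2.2e-05), whereas the main Gss promoter region, shared with start sites of 0610038P03Rik and Gm14256, had mean ATAC scores of 56.2, 55.8 and 49.8 (adjusted p = 0.54) and mean H3K27ac scores of 70.0, 116 and 141 (adjusted p = 0.025). A Gsr region 482 bases from a start site (chr8:34764544-34765127) had mean H3K27ac scores of 46.3, 51.3 and 19.3 (adjusted p = 0.026), lowest in EN, but ATAC scores of only 2 to 8. The open Gsr promoter region at the start site (chr8:34763722-34764433), with ATAC scores of 55 to 90, had H3K27ac means of 39.3, 59.7 and 37.0 (adjusted p = 0.36). The H3K27ac calls at Gpx1, Gss, Gsr and Srxn1 were each lost without ENR replicate 4 (adjusted p = 0.064, 0.058, 0.079 and 0.056), without EN replicate 2 (0.069, 0.088, 0.16 and 0.082), without EN replicate 3 (0.064, 0.12, 0.087 and 0.19) and without EN replicate 4 (0.073, 0.13, 0.064 and 0.18). Further single libraries decided the call at Gpx1 (without CV replicate 3, 0.067), at Gss and Srxn1 (without CV replicate 5, 0.13 and 0.055), at Srxn1 (without ENR replicate 2, 0.050), and at Gsr (without ENR replicate 1 or 2, 0.060 and 0.051). Gclc was called in none of the 4 datasets. Gclm, with 2.91-fold more RNA in EN than in CV, had mean H3K27ac scores of 77.7, 61.3 and 127 (adjusted p = 0.10).

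Hnf4g, a nuclear receptor of the differentiated intestinal epithelium, was read from 1 library per culture, so no test was possible, and intervals are exact Poisson intervals that cover counting error only. The libraries held 84340, 352600 and 1816497 reads within regions in CV, ENR and EN, and 3 reads are 35.6 CPM (relative to the reads within regions) in CV, the floor used for a count of 0. In EN the promoter regions of Srxn1, Txnrd1, Gclm and Gpx4 held 246, 208, 197 and 140 reads, or 135 CPM (95% interval 119 to 153), 115 (99.5 to 131), 108 (93.8 to 125) and 77.1 (64.8 to 90.9), all above 97.6% of regions in that library. This rank is by reads, not adjusted for the width of a region. In EN the median was 4 reads over all regions and 31 over promoter regions. The main Gss promoter region held 130 reads (71.6 CPM) and that of Gclc 102 (56.2), although the RNA of neither gene was called between EN and CV. That of Gpx1 held 50 reads, those of Gsr at most 44, and that of Nqo1, whose RNA was 3.52-fold higher in EN than in CV, 29. The Gpx2 promoter region held 20 reads in EN, or 11.01 CPM (6.73 to 17.0), so that Gpx2 and Nqo1 were below the median of 31 reads over promoter regions. In ENR the regions of Srxn1, Txnrd1, Gclm, Gpx4 and Gpx2 held 13, 28, 13, 6 and 5 reads, or 36.9 (19.6 to 63.0), 79.4 (52.8 to 115), 36.9 (19.6 to 63.0), 17.0 (6.24 to 37.0) and 14.2 (4.60 to 33.1) CPM, where the median promoter region held 4. The intervals of EN and ENR did not overlap for Srxn1, Gclm and Gpx4, and overlapped for Txnrd1 and Gpx2. In CV no promoter region of the 10 genes held more than 8 reads, and those of Gpx2, Gpx4 and Gclm, all 3 of Gsr and the weak one of Gss held 0, for which the floor of 3 reads is 35.6 CPM and the upper bound of the exact interval 43.7. In CPM, CV was above EN at the main Gss region (94.9, 41.0 to 187, against 71.6) and at Gpx1 (71.1, 26.1 to 155, against 27.5). It was below EN at Srxn1 (47.4, 12.9 to 121) and Txnrd1 (35.6, 7.34 to 104). All of these intervals overlapped those of EN. The CV values at Gss and Gpx1 rest on 8 and 6 reads. CPM relative to the reads within regions cannot show a difference in total binding between cultures, and the paper reports Hnf4g binding as nearly absent from CV. The regions of Gclc and Nqo1 held 2 reads each in CV, below the floor.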

How the data were processed

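RNA values came from 12 libraries of mouse small intestinal organoids, 4 per culture, with 5630951 to 8859744 counts of listed transcripts each. The authors deposited expected counts per transcript from kallisto (0.43.0 per the labels), in a table called normalized, beside TPM and mRNA copies, which are scores that the authors scaled to spike-ins. The kallisto index was limited to transcripts with a quantified protein, so reads of other transcripts may be assigned to listed ones. Chromatin files hold, per region (mm9, MACS2), rounded normalized scores that the authors deposited for ATAC-seq and the histone marks, with regions extended for H3K27me3, and raw counts for Hnf4g.

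Expected counts were rounded and tested with edgeR 4.0.16 in R 4.3.3 after TMM, in 1 fit of the 9288 of 9481 transcripts found in 4 or more libraries. The 92 spike-ins, 0.84 to 1.4% of counts, stayed out. Regions above 0 in at least 3 libraries were tested with limma 3.58.1, with a pseudocount of 1. Alternatives also used DESeq2 1.42.0. Sequences were read in Python 3.11.15. Scripts were tested on simulated data. Members and gene lists were chosen with earlier results of these data known. Named genes are the members, the largest rise and fall from CV to EN of each list among called transcripts without overlap, all thioredoxins and peroxiredoxins, Keap1, and the 3 transcripts most alike to the member that rose most and to the one that fell most; Gsta1 and Sod1, and the mention of the single marker genes, were added after their values were seen. Fits had no replicate block, since in no dataset did every pair of same-numbered libraries correlate above 0.1. The labels list 4 or 5 libraries of each mark per culture, of which 3 are in the table. Nfe2l2 and Slc7a11, also in that rule, and RNA libraries of Hnf4g knockout organoids were not analysed here.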

Additional observations from a re-analysis of the deposited data

Results flagged for a closer look

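In each group of 4 libraries, the highest and the lowest value at the 10 RNA transcripts and the 13 ATAC promoter regions were compared with the others by Dixon's criterion at its 95% critical value. Chance flags about 1 in 20 groups, and 5 of 69 were past it, all in ATAC. At the Gpx2 promoter, EN replicate 1 had a score of 14 where the other EN libraries had 31, 32 and 33. At the Gclm promoter, CV replicate 4 had 118 where the others had 146, 150 and 151. At the Gss region inside the gene, EN replicate 3 had 4 where the others had 7, 7 and 7. At the Nqo1 promoter, EN replicate 2 had 76 where the others had 65, 65 and 66. At the Srxn1 promoter, EN replicate 1 had 127 where the others had 113, 114 and 115. The calls at Gpx2, Gss and Srxn1 were kept without each of these libraries.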

How the results depend on the processing

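Of 690 alternative values of the log2 fold changes, 655 kept direction and call, 14 lost the call, 10 gained one and 11 changed sign. The called genes between CV and ENR fell from 8 of 10 to 3 on the mRNA copies (Gpx2, Txnrd1 and Srxn1) and to 3 with spike-in scaling (Gpx2, Txnrd1 and Nqo1). Of all 9288 transcripts, the called ones fell likewise, from 5569 to 1870 and to 2636. The sign turned from CV to EN for Gclc on log2(TPM + 1) (-0.28), log2(TPM + 5) (-0.26), spike-in scaling (-0.38) and without EN replicate 4 (-0.0026, where leaving out any 1 library gave -0.0026 to 0.0681), and on the mRNA copies for Gss (0.71) and Txnrd1 (0.44). From ENR to EN it turned for Gss on the copies (0.90) and Txnrd1 with spike-in scaling (-0.15), and between CV and ENR for Gpx4 on log2(TPM + 1) (0.10) and log2(TPM + 5) (0.10) and for Gss with spike-in scaling (-0.052). The cause was not tested. Leaving out each RNA library kept the called members at 8 to 9, 9 and 8 in the 3 comparisons.

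H3K27ac calls at the 13 promoter regions went from 6 to 0 without the variance trend, 3 after quantile normalization and 2 to 6 when each library was left out. Over all regions the share called was 6.65% in the main fit, 0.00318% without the trend and 3.64% after quantile normalization. Leaving out the 3 libraries that stood apart, an alternative chosen after seeing the data, leaves 1 CV library, so its calls are not counted. H3K4me3 calls went from 0 to 1 with a pseudocount of 5, 1 after quantile normalization, 2 among regions with a mean score of at least 10, and 0 to 3 when each library was left out. ATAC gave 4 to 7 calls under every alternative and H3K27me3 0. All 11 of 120 log2 ratios that moved by more than their spread did so on the mRNA copies, none with a change of sign.

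As for the replicate block, same-numbered libraries did not deviate together in RNA (r -0.14 to 0.07, 0 of 12 pairs over 0.1), H3K27ac (0 of 5) or H3K27me3 (0 of 6). In H3K4me3, 2 of 7 pairs were over 0.1, and 5 of 8 libraries with a partner correlated best with their own number. In ATAC, 8 of 12 pairs were over 0.1, and 9 of 12 libraries correlated best with their own number. With the block the called members were 8, 9 and 8 in RNA, 6 of 13 in ATAC (Gpx1 was added, at an adjusted p of 0.0492 against 0.0507), 0 in H3K27ac (adjusted p = 0.28 at Gpx2 and Gpx4), 0 in H3K4me3 and 0 in H3K27me3. In H3K27ac the block left 0 of all 94215 regions called. With 3 libraries per culture, the call rested on single libraries at 4 of the 6 called H3K27ac promoter regions, and depth limits Hnf4g in CV.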
